A study of Drosophila melanogaster with 4 samples.

Results

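Serine 5 of the heptad repeat in the C-terminal domain of RNA polymerase II is phosphorylated by the Cdk7 kinase of TFIIH around the start of transcription. In Drosophila, polymerase bearing this mark (Ser5P) is known to gather close behind promoters, where it often pauses before it enters the gene body. Its enriched regions are therefore often short, and a region of many kilobases reaches past the neighbourhood of a single promoter. Broad Ser5P domains on the autosome arms of a wing disc cell line are described here. Such a domain is a region of the study's combined list with a positive score, at least 8 kb wide, on arm 2L, 2R, 3L or 3R, that overlaps a positive region of each replicate list by at least 1 bp. The domains were thus selected by their width in the combined list, and their widths and scores are given as descriptions without a test. They numbered 355, of 4022 combined regions on these arms and 5309 in the whole list. Every combined region of this width on the arms met the overlap condition, whereas 82.3% of all combined regions on the arms did.

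ChIP-seq, which sequences the DNA that an antibody pulls down with chromatin, was done on CME-W1-Cl.8+ cells. This line, also called Clone 8, is a male one from the dorsal mesothoracic disc of the third larval instar. There were 2 ChIP libraries, for which ab5131, a rabbit polyclonal against Ser5P, was used, and 2 input DNA libraries, all from the line without a named treatment. Region lists of ChIP replicate 1, ChIP replicate 2 and the series as a whole were used, with 5091, 4876 and 5309 positive regions. No read counts came with the lists, so the depth of the libraries is unknown, and nothing states that the replicates were separate cultures. Positions are on FlyBase release 5, and because the gene table at hand follows release 6, domains are named by arm and position and carry no gene names. The identity of the cells could not be checked from region lists, which hold no marker genes.

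The domains were few but took up much of the marked sequence. They made up 8.83% of the combined regions on the arms and held 31.6% of the bases in those regions, 5.20 of 16.4 Mb, which is 5.38% of the arms' length. Their median width was 11.2 kb, with quartiles of 9.27 and 15.2 kb, and widths ran from 8.03 to 122 kb. Of the 355, 121 were under 10 kb, 142 were from 10 to under 15 kb, 45 from 15 to under 20 kb, 32 from 20 to under 30 kb, and 15 were wider still. Those 15 began at 35.3 kb, so no domain was between 30 and 35 kb wide.

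The limit of 8 kb fell within a continuous run of widths. The narrowest domains inside it were 8.033 kb on 3R from 19553066 to 19561098, 8.051 kb on 3R from 16959058 to 16967108 and 8.073 kb on 2R from 5072628 to 5080700, with scores of 1.48, 0.714 and 2.39. The widest regions outside it that were found in both replicates were 7975 bp on 2L from 8304618 to 8312592, 7963 bp on 3R from 559220 to 567182 and 7957 bp on 3R from 22690886 to 22698842, with scores of 1.22, 1.52 and 1.94. The scores on either side of the limit overlapped. A limit of 10 kb would have given 234 domains and one of 6 kb 631.

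The 4 arms carried broad domains at similar density, and 3R held the most domains and most of the 15 beyond 30 kb, although the widest of all lay on 3L. Arm 3R had 109 domains (3.91 per Mb), 2R 86 (4.07 per Mb), 3L 86 (3.50 per Mb) and 2L 74 (3.22 per Mb). Domains covered 6.65% of 3R, 5.17% of 2R, 5.02% of 3L and 4.43% of 2L. The median domain was 12.2 kb wide on 3R, 11.4 kb on 2L, 10.9 kb on 2R and 10.5 kb on 3L. Of the 47 domains of at least 20 kb, 23 lay on 3R, 9 on 2L, 8 on 2R and 7 on 3L, and of the 15 beyond 30 kb, 9 lay on 3R and 2 on each other arm. For orientation, the X carried 126 regions of at least 8 kb found in both replicates (5.62 per Mb) and chromosome 4 carried 12 (8.88 per Mb), against 3.67 per Mb on the 4 arms together. None of these differences between sequences was tested.

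Along the arms the domains were spread from end to end. Each arm was divided into 5 equal parts, counted from the telomere. From the telomere inwards the parts held 81, 75, 63, 65 and 71 domains, with 22.8, 21.1, 17.7 and 18.3% of all in the first 4. The narrower regions found in both replicates lay there at 20.2, 20.5, 20.2 and 19.0%. The thinnest part was part 4 of 2L, with 5 domains, while the other 3 arms had 18, 19 and 23 in part 4. The outermost domains lay close to the telomeres of 2L and 3R. On 2L the first began at position 6744, and on 3R the last ended at 27885374, 19.7 kb before the end of the arm's sequence. At the centromere end of 3L the last domain ended at 22947360, 1596 kb before the sequence ran out.

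Windows of 1 Mb held 3.67 ± 2.03 domains (SD, 95 full windows), with a median of 4 and a range of 0 to 10. The narrower regions numbered 30.8 ± 9.57 per window in the same windows. These windows are described for their counts, without a test. The fullest window was 2R from 5 to 6 Mb, with 10 domains that summed to 152 kb. Next came the first megabase of 2L, with 8 domains that summed to 181 kb. Of the windows, 9 held 1 domain and 6 held none. The empty ones were 14 to 15 Mb and 17 to 18 Mb on 2L, 0 to 1 Mb and 16 to 17 Mb on 2R, and 2 to 3 Mb and 23 to 24 Mb on 3L. Empty windows were not empty of Ser5P, since they held between 9 and 28 narrower regions each.

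Most domains stood apart from each other, and a minority lay in pairs or triplets. The median gap between neighbouring domains, edge to edge, was 147 kb, with quartiles of 41.9 and 367 kb over 351 gaps. The smallest gap was 73 bp and the largest 2123 kb, and 14 gaps were over 1 Mb. Within 10 kb of another domain lay 59 domains (16.6%), within 20 kb 103 (29.0%) and within 50 kb 174 (49.0%). When gaps of up to 20 kb were bridged, 252 domains stayed alone and 103 fell into 48 groups. Of these groups, 41 were pairs and 7 were triplets, and none was larger. At 50 kb the largest group held 5 domains. These distances depend on the width limit, since the median gap was 248 kb at a limit of 10 kb and 72.0 kb at 6 kb.

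**Figure D1:**
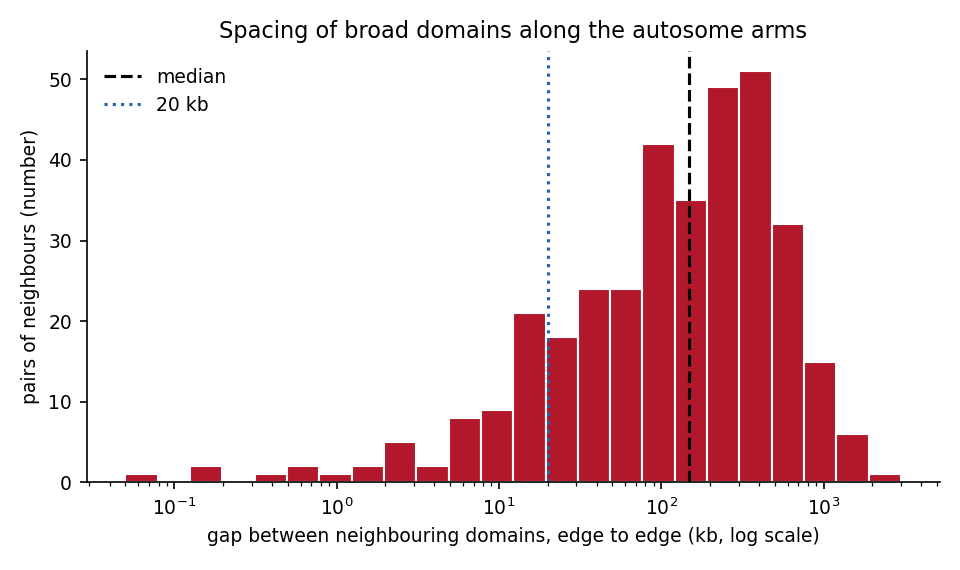
Number of pairs of neighbouring broad domains (vertical axis) by the gap between their facing edges in kb (horizontal axis, log scale), for all 351 gaps on the 4 autosome arms. The dashed line marks the median of 147 kb and the dotted line 20 kb, below which 55 gaps lie.

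The triplets were long stretches in which domains took most of the sequence. The first 5 triplets by arm and position are described here. The longest spanned 99.2 kb of 2L from 154280 to 253500, where domains of 16.9, 41.9 and 10.2 kb filled 69.6% and 6 narrower regions lay between them. On 2R from 5451314 to 5546828, domains of 16.8, 12.2 and 49.8 kb filled 82.6% of 95.5 kb, and 1 narrower region lay between them. The other triplets ran from 7030820 to 7085724 on 2L and, on 2R, from 17544514 to 17593208 and from 20845290 to 20900794. They spanned 54.9, 48.7 and 55.5 kb, of which domains filled 69.2, 68.2 and 67.8%. Within a triplet the members differed in strength. In the triplet that ends at 20900794 on 2R the scores were 2.42, 0.488 and 1.82, and in the one from 5451314 they lay closer, between 1.26 and 1.43.

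Domains less than 1 kb apart could have been counted as one. There were 7 such pairs, with gaps of 73, 129, 175, 433, 639, 673 and 955 bp. Of these, 1 pair was joined in a replicate. On 2R, the region of replicate 1 from 20883912 to 20891755 ran across the gap of 73 bp. In the other 6 pairs both replicate lists left a break, which was at most 17.4% covered. In the 3 closest pairs the domain on the lower coordinate side had the lower score in the combined list. The lower and the higher side scored 0.488 and 1.82 across the gap of 73 bp, 0.702 and 1.32 across 129 bp, and 0.624 and 1.41 across 175 bp. This did not hold over all 7 pairs. The lower side had the higher score across 433 bp (2.39 and 2.34), 639 bp (1.99 and 0.902) and 955 bp (1.60 and 0.875). Across 673 bp it had the lower one (1.62 and 2.19). Merging at 1 kb would do more than join these 7 pairs. With regions of every width merged at that distance in each list, the domains numbered 495, since merged narrower regions also reached 8 kb.

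Other Ser5P regions crowded around broad domains about as closely as around regions of medium width. The nearest other region of the combined list lay at a median distance of 1.74 kb from a broad domain, 1.99 kb from a medium region (4 kb to under 8 kb, 835 regions) and 2.70 kb from a compact region (under 4 kb, 2120 regions), all found in both replicates. A neighbour within 1 kb was found for 123 broad domains (34.6%), 284 medium regions (34.0%) and 551 compact regions (26.0%), against 28.9% of the 3310 regions of all widths. No other region lay within 20 kb of 19 broad domains (5.35%), 50 medium regions (5.99%) and 217 compact regions (10.2%), against 8.64% of all 3310. The domain farthest from any other was the 8.09 kb domain on 2L from 15498076 to 15506166. Its nearest domain was 799 kb away and its nearest region of any width 123 kb away, and it was unbroken in both replicates, with a score of 2.41. This domain was singled out after its values had been seen.

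The widest domains showed how differently the replicates could draw the same stretch. The widest, on 3L from 22279764 to 22402154, was 1 region in each list, 122.391 kb wide in the combined list, 122.026 kb in replicate 1 and 122.283 kb in replicate 2. The second, 98.3 kb on 3R from 21340610 to 21438924, was almost 1 region in replicate 1, which had a piece of 96.5 kb and, 27 bp further on, one of 1.73 kb. Replicate 2 drew it as pieces of 83.1, 10.6 and 1.88 kb. In both replicates the small piece lay at the end with the higher coordinates. The domain after it, 95.1 kb on 3L from 5147606 to 5242676, had 2 pieces of 64.9 and 30.2 kb in replicate 1 and 8 pieces in replicate 2, the most of any domain. In replicate 2 those 8 pieces were between 1.34 and 37.1 kb wide and still covered 93.8% of the domain. The 6 inner pieces scored between 0.421 and 0.683, while the first and last pieces scored 0.914 and 1.26. The next in width, 92.1 kb on 3R from 4892760 to 4984832, was unbroken in replicate 1 and had 4 pieces in replicate 2.

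**Figure D2:**
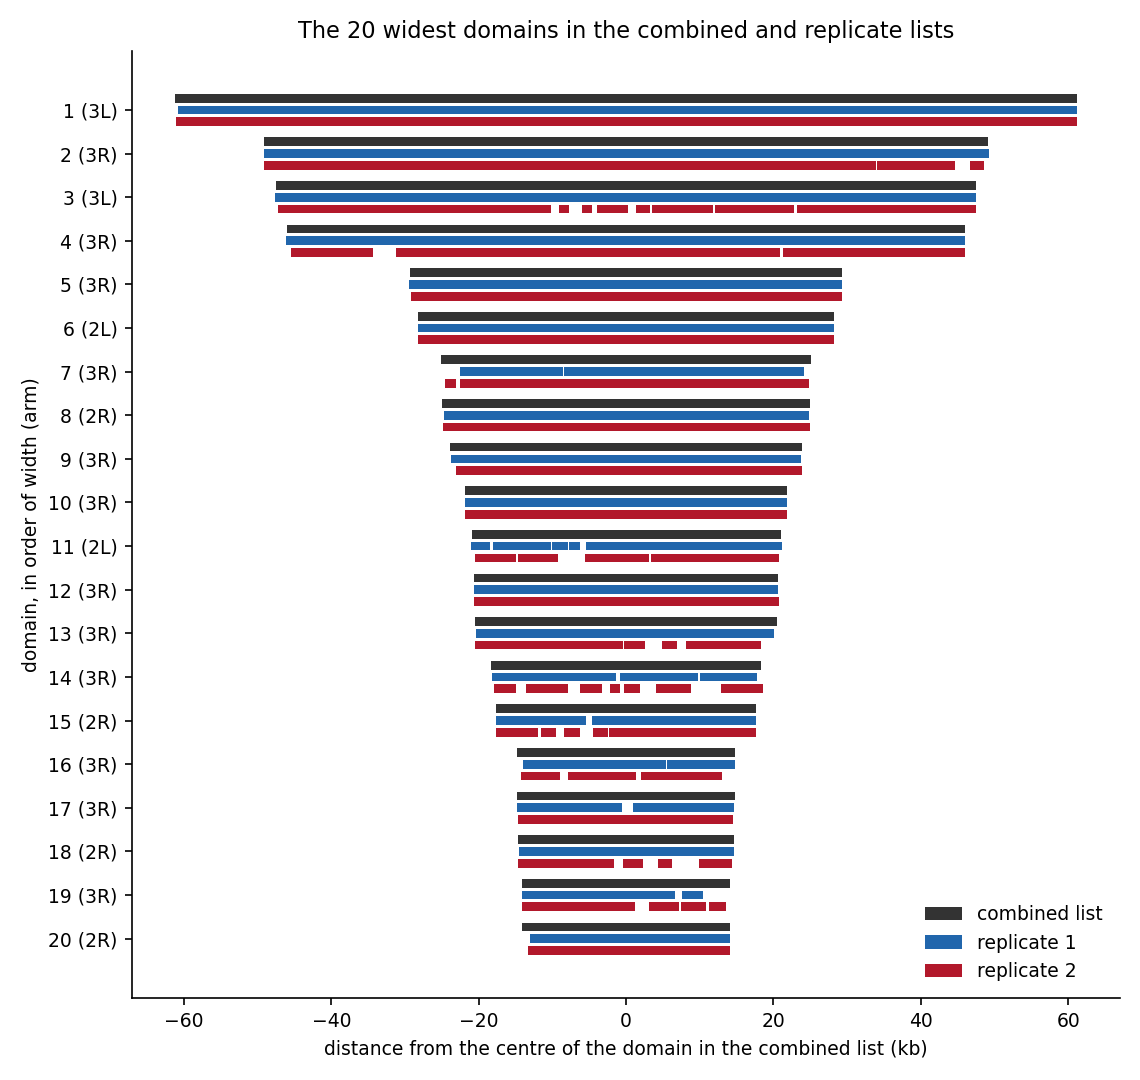
The 20 widest broad domains in order of width, each drawn as 3 bars in the combined list (black), replicate 1 (blue) and replicate 2 (red) by distance from the domain's centre in kb, with white breaks where a list leaves sequence uncovered. The widest domain is unbroken in all 3 lists, and the one of 95.1 kb is 2 regions in replicate 1 and 8 in replicate 2.

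The 15 domains of over 30 kb included 5 that were unbroken in both replicates. Besides the widest, these were 58.7 kb on 3R from 19114128 to 19172826, 49.8 kb on 2R from 5496982 to 5546828, 43.8 kb on 3R from 20413784 to 20457578 and 41.3 kb on 3R from 2718330 to 2759674. In these 5, each replicate covered at least 99.57% of the domain. The 56.5 kb domain on 2L from 489728 to 546206 was unbroken in replicate 1 and had 2 pieces in replicate 2, which together covered 99.9% of it. The 50.3 kb domain on 3R from 1086024 to 1136304 had 2 pieces in each replicate, and that of 47.8 kb on 3R from 15616440 to 15664264 had 1 and 2 in replicates 1 and 2. The least stable of the 15 was the 36.7 kb domain on 3R from 26149724 to 26186468. Replicate 1 drew it as 3 pieces of 16.9, 10.6 and 7.74 kb and covered 95.7% of it. Replicate 2 drew it as 7 pieces, none over 5.71 kb, and covered 69.8%. Its combined score of 0.615 was the lowest of the 15, and a second domain, of 40.9 kb, ended 6.19 kb before it.

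Most domains were not continuous in both replicates. A domain was called unbroken where exactly 1 region of a replicate list overlapped it. In both replicates, 153 of the 355 domains (43.1%) were unbroken, against 88.1% of all regions on the arms found in both replicates. Of medium regions 78.4% were unbroken and of compact regions 99.4%. Replicate 1 alone broke 68 domains (19.2%), replicate 2 alone broke 45 (12.7%), and both broke 89 (25.1%). The domains were 557 pieces in replicate 1 and 551 in replicate 2. Breaks were mostly single, as 118 domains had 2 pieces in replicate 1 and 98 in replicate 2, while 39 and 36 had 3 or more. Per 100 kb of sequence, replicates 1 and 2 had 3.89 and 3.77 inner breaks in broad domains, 3.22 and 1.98 in medium regions and 0.165 and 0.0915 in compact regions. These differences between classes were not tested, since width chose the classes. Compact regions had a median width of 2.37 kb and none reached 4 kb, which leaves little room for 2 pieces and a break. They were 2120 of the 3310 regions found in both replicates. The values for compact regions, and much of the 88.1%, thus follow from width and do not measure continuity. The share unbroken depended on the list that set the width. Among regions of at least 8 kb it was 71.9% in replicate 1 and 69.4% in replicate 2. There, only the other replicate and the combined list could break a domain. The share was 80.2% when the lower scoring 50% of regions was dropped from every list. Weak pieces that would break a domain were then dropped too, so this value does not show that strong domains were continuous. The median share of bases covered in both replicates fell from 91.9 to 85.4% in that setting.

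**Figure D3:**
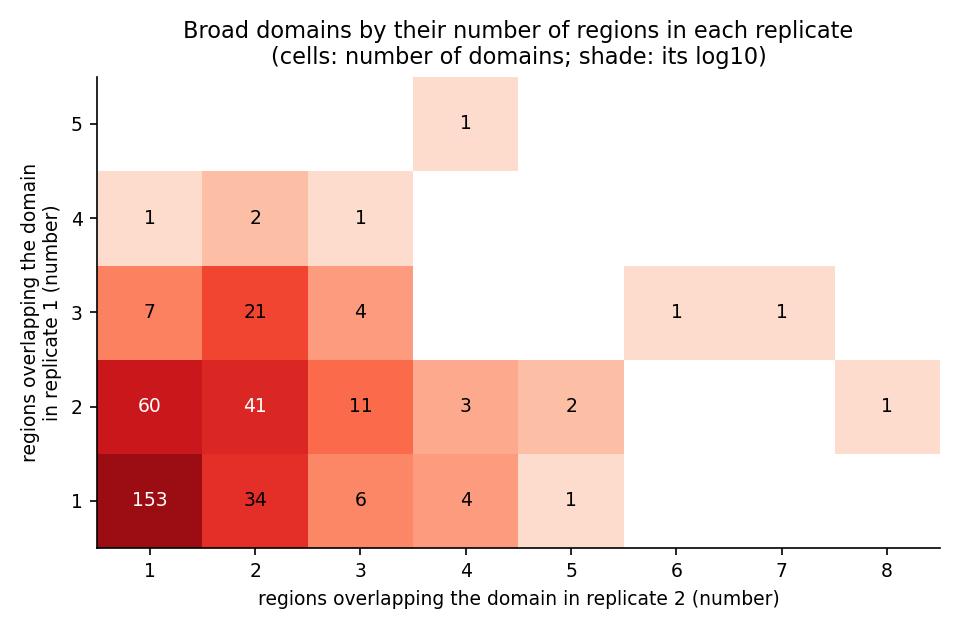
Number of broad domains by how many regions overlapped them in replicate 1 (vertical axis) and replicate 2 (horizontal axis). The largest cell is the 153 domains that were 1 region in each, and 41 domains had 2 pieces in each.

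Stronger domains were less often broken. In order of combined score, from the lowest scoring 25% of the domains to the highest, 19 of 89, 25 of 89, 45 of 89 and 64 of 88 were unbroken in both replicates, which is 21.3, 28.1, 50.6 and 72.7%. The median share of bases that both replicates covered was 81.3, 89.0, 94.6 and 96.7% in the same order. Width gave no such steady order. In the 5 width bands given above, from the narrowest to the widest, the unbroken domains were 60 of 121, 57 of 142, 21 of 45, 10 of 32 and 5 of 15. These are 49.6, 40.1, 46.7, 31.25 and 33.3%, so the share was lower in the bands from 20 kb up. Across the 355 domains, Spearman's rho between score and the number of pieces over both replicates was -0.46, and between width and pieces it was 0.18. The domains share the same libraries, and how the combined score relates to the replicate lists is not given in what was used here, so these values are descriptions of the lists.

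The breaks were short. Inner gaps, those with pieces on both sides, numbered 202 in replicate 1 and 196 in replicate 2. Their median length was 452 bp in replicate 1 and 562 bp in replicate 2, and 73.8 and 66.3% of them were under 1 kb. The longest was 4.61 kb in replicate 1 and 6.31 kb in replicate 2. In all, replicate 1 left 303 kb (5.83%) of the domain sequence uncovered and replicate 2 left 388 kb (7.47%). Of these uncovered bases, 45.6 and 44.3% lay in inner gaps and the rest at the ends of domains. The median domain was covered to 96.6% by replicate 1 and to 96.4% by replicate 2, and to 91.9% by both at the same bases. Replicate 1 covered 17 domains to less than 75%, and replicate 2 covered 38 so.

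Breaks recurred at the same place in a minority of cases. Of the 202 inner gaps in replicate 1, 68 (33.7%) overlapped an inner gap of replicate 2, and 64 (32.7%) of the 196 in replicate 2 overlapped one of replicate 1. Among the 89 domains broken in both replicates, 60 (67.4%) had at least 1 overlapping gap. The stronger side of a broken domain was mostly shared. In these 89 domains the highest scoring piece lay on the same side of the domain's midpoint in both replicates in 74 (83.1%) and on opposite sides in 15. For the 41 domains with 2 pieces in each replicate, 36 (87.8%) had their stronger piece on the same side. Of the 54 medium regions broken in both replicates, 49 (90.7%) had it on the same side. The side itself was balanced, as it was the lower coordinate side in 79 and the higher in 78 broken domains of replicate 1, and in 63 and 71 of replicate 2. With 3 or more pieces, the strongest was at one end of the domain in 27 of 39 cases in replicate 1 and in 32 of 36 in replicate 2. In a domain of 3 pieces, 2 are end pieces, and with more pieces the ends are a smaller part, so these counts have no single baseline. A preference for the ends was not tested.

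Pieces of one domain often differed much in score. The gap between the highest and the lowest scoring piece had a median of 0.830 in replicate 1 (157 broken domains) and 0.819 in replicate 2 (134 broken domains), and exceeded 1 in 59 and 51 of them. The highest scoring piece was also the widest in 74.5 and 71.6%. The domain on 3R from 17120854 to 17133202, second in combined score, is given as an example. In replicate 1 its pieces were 5.96, 2.46 and 2.46 kb wide with scores of 3.85, 2.00 and 3.14, and the breaks between them were 53 and 39 bp long. Replicate 2 had 1 region of 9000 bp there, with a score of 3.88, which stopped 2168 bp short of the end that replicate 1 reached.

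A width limit applied to the replicates would have kept only some of these domains. A piece of at least 8 kb was present in both replicates for 192 domains (54.1%), in replicate 1 only for 47, in replicate 2 only for 46 and in neither for 70 (19.7%). Each replicate list held 253 regions of at least 8 kb on these arms. Of those, 6 in replicate 1 and 3 in replicate 2 overlapped no broad domain, the widest being 12.1 and 9.14 kb.

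The outer edges of most domains lay close together in the replicates. The outermost start differed between replicate 1 and replicate 2 by a median of 93 bp and the outermost end by 114 bp, with upper quartiles of 272 and 364 bp. Over both edges the median was 101 bp, against 85 bp for medium and 43 bp for compact regions. At the start 51.5% of domains differed by at most 100 bp, and at the end 48.2% did. Both edges met that limit in 89 domains (25.1%), against 43.7% of all regions on the arms found in both replicates. Differences of over 1 kb were seen at 35 starts (9.86%) and 47 ends (13.2%) of broad domains, at 11.0 and 9.22% of those of medium and 1.84 and 1.56% of those of compact regions, against 5.02 and 4.74% over all widths. Broad domains thus lay near medium regions in this measure. For unbroken domains the median was 94 bp for starts and 86 bp for ends, and for broken ones 92.5 and 129.5 bp. Neither replicate reached further out as a rule, since replicate 1 began earlier in 174 domains and replicate 2 in 178, and replicate 1 ended later in 166 and replicate 2 in 187.

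**Figure D4:**
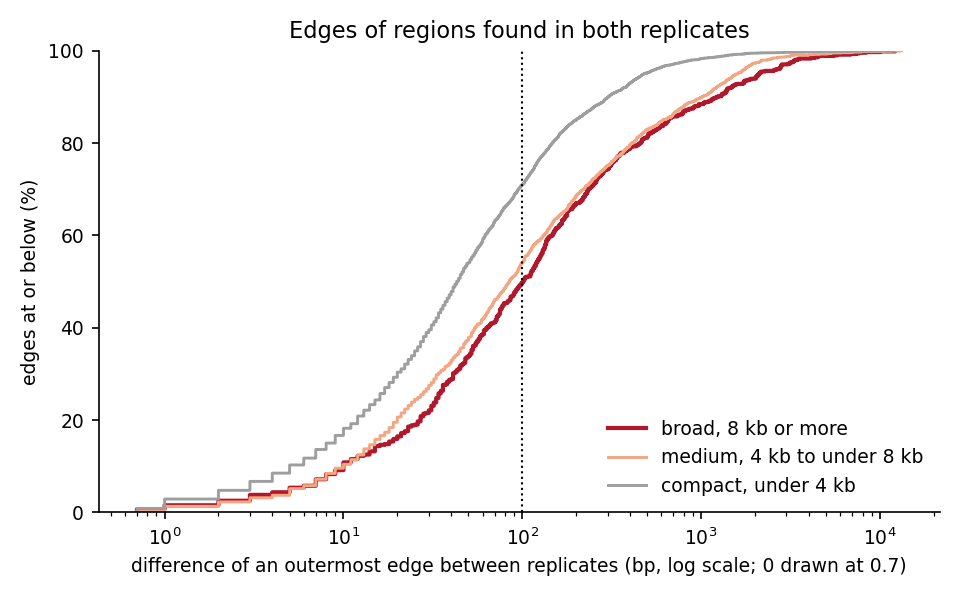
Cumulative share of region edges (vertical axis, %) by the difference of the outermost start or end between the replicates in bp (horizontal axis, log scale), for 355 broad domains (dark red), 835 medium regions (orange) and 2120 compact regions (grey) found in both replicates. Medians are 101, 85 and 43 bp, and the dotted line marks 100 bp.

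In broad domains, as in regions of every width, the combined list mostly set its edges outside those of the replicates. Replicate 1 began inside the domain in 278 cases and outside in 72, and ended inside in 282 and outside in 71. Replicate 2 began inside in 295 and outside in 57, and ended inside in 283 and outside in 71. As shares of the 355, replicate 1 began inside in 78.3% and ended inside in 79.4%, against 80.3 and 80.9% of all regions on the arms found in both replicates. Replicate 2 began inside in 83.1% and ended inside in 79.7%, against 81.9 and 82.4% of those regions. The typical step inward was small, its medians being 50 bp for starts and 45 bp for ends in replicate 1, and 54 and 38 bp in replicate 2. The outermost pieces thus spanned a median of 98.6% of the domain in replicate 1 and 98.4% in replicate 2. An edge more than 1 kb inside the domain occurred at 20 starts and 25 ends in replicate 1 and at 29 starts and 30 ends in replicate 2. Some of the highest scoring domains had edges that nearly coincided. On 3L from 3191344 to 3200316, an 8.97 kb domain with a score of 3.26, the start was the same base in both replicates and the ends were 5 bp apart. On 2R from 9212878 to 9233424, a 20.5 kb domain with a score of 3.11, the edges differed by 63 and 59 bp.

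Most broad domains scored above the middle of the list. The score is the study's own value for each region, and it was compared only within a list. The median score was 1.60 for broad domains, 1.38 for medium and 1.02 for compact regions, and 1.03 for the whole combined list. Above that list median lay 312 domains (87.9%), against 59.8% of regions on the arms found in both replicates. In the upper 25% of the list by score lay 173 domains (48.7%), against 30.5% of those regions. Among the 100 highest scoring combined regions were 6 broad domains (1.69% of them), 20 medium regions (2.40%) and 43 compact regions (2.03%), and 2.08% of all regions on the arms found in both replicates, so the domains' share was close to that of the rest. Scores of domains ran from 0.449 to 4.00 with an SD of 0.525, against 0.619 for medium and 0.741 for compact regions. Since width chose the classes and width goes with score, these differences were not tested.

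Among the domains themselves, width and score were nearly unrelated. Spearman's rho between them was 0.08 over the 355 domains and 0.10 over the 835 medium regions, against 0.52 over the 2120 compact regions and 0.46 over all 3310. The widest domains were of middling score. In the 5 width bands, from the narrowest to the widest, the median scores were 1.51, 1.67, 1.73, 1.56 and 1.46. Domains beyond 30 kb scored between 0.615 and 1.70, and those from 15 to under 20 kb, the band with the highest median, between 0.488 and 3.02.

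**Figure D5:**
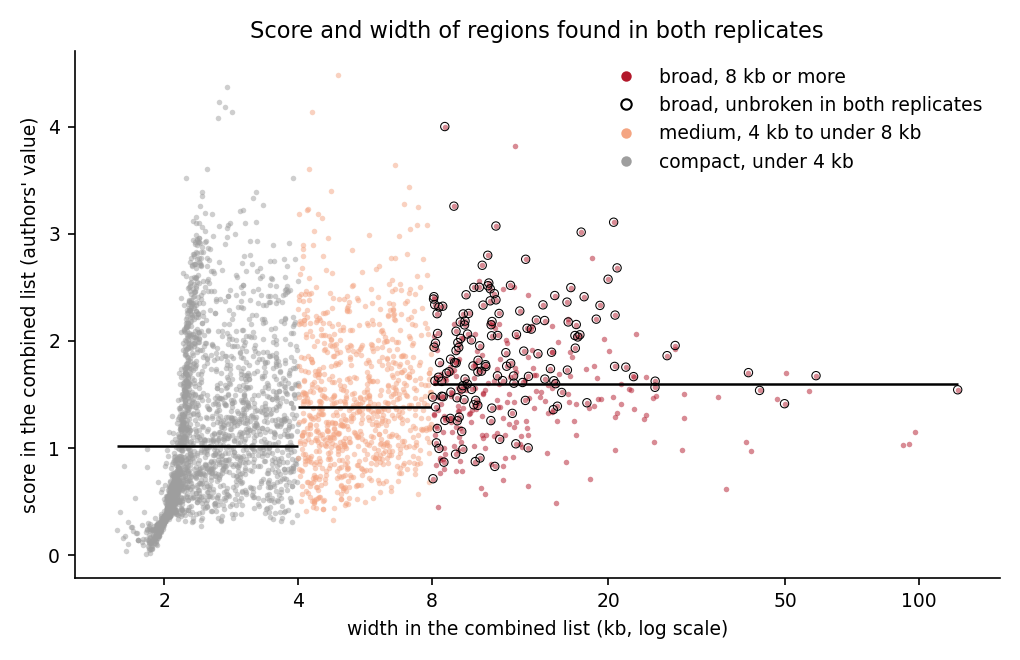
Combined-list score (vertical axis, the authors' value) by width in kb (horizontal axis, log scale) of regions on the 4 arms found in both replicates, coloured by width class, with the median score of each class as a black line and domains unbroken in both replicates circled. Medians are 1.60 for broad, 1.38 for medium and 1.02 for compact regions, and no domain beyond 30 kb scores above 1.70.

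The 10 highest scoring domains were between 8.56 and 20.5 kb wide, so none was among the widest of all. First was the 8.56 kb domain on 3L from 11242576 to 11251134, with a combined score of 4.00, which ranked 8 in the combined list, 10 in replicate 1 and 6 in replicate 2. The 3R domain from 17120854 followed with 3.82, and the 3L domain from 3191344 and the 2R domain from 9212878, both described above, came next. The next were 11.2 kb on 2R from 7773864 to 7785020 (3.07), 17.4 kb on 3R from 14737886 to 14755248 (3.02) and 10.7 kb on 2R from 2511142 to 2521836 (2.80). The last of the 10 were 18.3 kb on 3R from 2898932 to 2917260 (2.77), 13.0 kb on 2R from 15328308 to 15341326 (2.76) and 10.4 kb on 3L from 222450 to 232842 (2.71). Of these 10, 8 were unbroken in both replicates. The other 2 were the 3R domain from 17120854 and that from 2898932, which had 2 pieces in each replicate.

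The ranks of the domains were alike in the replicates where they could be compared piece by piece. For the 153 unbroken domains, Spearman's rho between the scores of replicate 1 and replicate 2 was 0.94. These domains had median scores of 1.88 in replicate 1 and 1.83 in replicate 2, against list medians of 1.18 and 1.19. In the upper 25% of their list lay 98 of the 153 in replicate 1 and 86 in replicate 2, against 25% of the list by definition. Unbroken domains also scored higher than broken ones in the combined list, with medians of 1.80 and 1.43. The high position of the 153 thus partly follows from how they were picked. The replicates share the cell line and the antibody, and the points are domains of one pair of libraries, so the coefficient is a description. At the other end of the scale, the lowest scoring domain, named after its values had been seen, lay on 3L from 3433828 to 3442082 with a combined score of 0.449. Replicate 1 covered 95.9% of it in 1 region and replicate 2 covered 51.3% of it in 2.

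The most fragmented domains mostly scored below the domains' median of 1.60. In all, 18 domains had 4 or more pieces in a replicate, and 17 of them scored below that median, with a range of 0.615 to 1.92 and a median of 1.05. The greater number of pieces was in replicate 2 in 13 of the 18 and in replicate 1 in 5. By the larger number of pieces in either replicate, the first after the 3L domain of 8 pieces were that of 7 on 3R from 26149724 and that of 6 on 3R from 12920516 to 12945892, which had 3 in replicate 1. Next came 4 domains whose larger number was 5. They ran from 184556 on 2L, with 5 in replicate 1 and 4 in replicate 2, from 4536056 on 2R, with 2 and 5, from 8087010 on 3L, also with 2 and 5, and from 26102610 on 3R, with 1 and 5. For a further 11 domains the larger number was 4, and the first 3 of them by arm and position were on 2L from 2154630, 10487550 and 18616164.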

How the data were processed

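The deposited lists give each enriched region's start, end and score, the score being the authors' value for the region, on FlyBase release 5 per the file headers. Per the submitters' processing notes, Bowtie 0.12.7 served for alignment. Not given in the sources used here are the region caller, its threshold, the scale of the score and how the combined list arose, so scores were ranked and compared only within a list. The lists hold no read counts. No region list of the input DNA libraries was at hand.

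Regions with a score of 0 or less (0 in replicate 1, 1 in replicate 2, 18 in the combined list) were left out. Combined regions on 2L, 2R, 3L and 3R that overlapped a positive region of each replicate by at least 1 bp were classed as broad (at least 8000 bp), medium (4000 to 7999 bp) or compact (under 4000 bp). A piece is a replicate region that overlaps a domain, and edges were taken from the outermost pieces. No test was run, since width and overlap chose the domains and each library is one list. The domains, the lists and the rule for those named (the 20 widest, the 10 highest scoring, the 10 with the most pieces in either replicate, 5 groups and those next to the limit, ties by arm and start) were chosen with earlier results of these data known. The tools were pandas 2.3.3, numpy 2.4.6, scipy 1.17.1 and matplotlib 3.10.9 under Python 3.11.15, and the measures were checked on made-up lists with known answers. Alternatives changed the width limit, the score minimum, the required overlap, the merging of close regions, the list that set the width and the replicates used.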

Additional observations from a re-analysis of the deposited data

How the results depend on the processing

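The lists give no depth, so whether a break in one replicate reflects depth was not tested, and 2 ChIP libraries allow no estimate of a spread beyond their difference. Of 70 alternative values for 8 results, 21 stayed close to the main value and 49 did not. Close meant equal or nearer than the SD of the values from the 2 replicate lists (within 1.5 times, for the number of domains). Some of the 21 could not have moved. Every combined region of this width overlapped both replicate lists, so leaving out 1 replicate could not change which domains were kept. Their number, gaps, share within 20 kb, scores and ratio of arms were thus fixed, and they do not show stability. The cause of the 49 shifts was not tested beyond what each setting changes. With a width limit of 10000 bp there were 234 domains, 39.7% unbroken in both replicates, with a median of 93.2% covered in both, a median edge difference of 111 bp, a median gap of 248 kb, 20.1% within 20 kb of another and a median score of 1.63. With 6000 bp these were 631, 52.9%, 91.1%, 94 bp, 72.0 kb, 45.2% and 1.55, and the densest arm exceeded the sparsest 1.34 times (1.26 times at 8000 bp). With the lower scoring 50% of regions dropped from every list, weak pieces that would break a domain were not counted. In that setting 80.2% were unbroken, 85.4% was covered and edges differed by 117 bp. Gaps were 195 kb, 21.8% lay within 20 kb and the score was 1.67. With at least 50% of bases covered in each replicate, 92.6% was covered, edges differed by 99 bp, 28.2% lay within 20 kb and the ratio of arms was 1.22. With regions within 1 kb merged, the domains numbered 495 against 355, which counted as close under the limit of 1.5 times. Of these, 56.8% were unbroken, 88.7% was covered and edges differed by 83 bp. Gaps were then 89.1 kb, 40.8% lay within 20 kb and the ratio of arms was 1.32. With the replicate 1 list setting the width, 71.9% were unbroken, 98.6% was covered, edges differed by 116.5 bp, gaps were 228 kb, 24.5% lay within 20 kb, the score was 1.75 and the ratio of arms 1.39. With the replicate 2 list, the same were 69.4%, 98.8%, 119 bp, 208 kb, 25%, 1.72 and 1.34. The scores of 1.75 and 1.72 are those of the replicate lists. They cannot be set against the combined median of 1.60, although both were counted among the 49. Leaving out 1 replicate each gave 55.8 to 62.3% unbroken and 96.4 to 96.6% covered in the other, and left no edge difference to measure. No paired analysis was possible because the input libraries, which share the replicate numbers, had no region list at hand, which leaves 1 group.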

Other observations

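All edges in the combined list lay at even positions, whereas 49.7% of region edges in replicate 1 and 50.4% in replicate 2 did. Inner breaks lay more often in the middle of a domain than towards its ends. With each domain divided into 3 equal parts by coordinate, the centres of the breaks numbered 59, 95 and 48 in replicate 1 and 41, 109 and 46 in replicate 2. A break near an end would count as an uncovered end unless a piece lay beyond it, and this was not tested.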
